A study of Rattus norvegicus with 4 samples.

Results

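The colonic epithelium takes up sodium chloride and secretes chloride, bicarbonate and fluid, and 10 genes of this machinery were read from the arrays of the series. They were Guca2a, Guca2b and Gucy2c of the guanylin signal, the apical exchanger genes Slc26a3, Slc9a3 and Slc9a2, the chloride secretion genes Cftr and Slc12a2, and the carbonic anhydrase genes Car2 and Car4. A gene was taken as the row of the deposited table whose RefSeq accession maps to its symbol, with a value on every array, and as the brightest row where there were several. All 10 had such a row, each a single one, among 6968 named genes and 18350 measured rows. This rule used no difference between the groups, but the list of 10 genes was drawn up with earlier results of these data known.

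Colon tissue was taken from male Sprague Dawley rats, 2 control and 2 MSCT rats, with 1 one-color NimbleGen array per rat. MSCT rats, whose samples are titled case, had colitis induced with TNBS (2,4,6-trinitrobenzene sulfonic acid) in ethanol through a tube into the colon and then received mesenchymal stem cells labeled with green fluorescent protein through the tail vein. Control rats received no MSC transplantation, but the sources differ on whether they had colitis, since the sample descriptions call them normal rats and the paper and the design text call them IBD (inflammatory bowel disease) rats. The paper also gives the chips different days after transplantation in different places. In the paper, samples are described as covering the lesion, with no group singled out.

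As background, guanylin and uroguanylin are small peptides released into the gut lumen that bind guanylate cyclase C on the enterocyte and raise cyclic GMP. Cyclic GMP acts through a membrane-bound kinase to open the chloride channel CFTR and to inhibit the sodium/hydrogen exchanger NHE3. In surface colonocytes NHE3 and the chloride/bicarbonate exchanger DRA work side by side in salt absorption, and carbonic anhydrases supply both with protons and bicarbonate. Loss of DRA in people causes a congenital chloride diarrhea, and bacterial toxins that mimic guanylin cause a secretory one.

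The promoter windows of 4 genes show how differently these genes begin, and each holds the 250 bases before a start site of the RefSeq promoter table, read 5′ to 3′ on the gene's strand (GRCr8). Guca2a and Guca2b are shown because they are neighboring genes that face each other on chromosome 5 and encode the paired ligands, Slc26a3 because it was the brightest of the 10 rows, and Slc9a2, at its upstream start, because it was the one gene of the 10 that was lower in the MSCT group. Capitals mark 3 strings searched on both strands, of which neighboring copies of the last overlap in Slc9a2: TATAA, the core of a TATA box, GTTAAT, part of the site read by HNF1, and GGGCGG, a GC box.
Guca2a, chr5:138522196-138522445, plus strand: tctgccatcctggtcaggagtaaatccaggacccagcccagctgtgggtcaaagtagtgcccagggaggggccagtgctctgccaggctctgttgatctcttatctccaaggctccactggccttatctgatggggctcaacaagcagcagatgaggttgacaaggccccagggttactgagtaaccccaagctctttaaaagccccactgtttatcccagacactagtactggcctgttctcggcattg
Guca2b, chr5:138534211-138534460, minus strand: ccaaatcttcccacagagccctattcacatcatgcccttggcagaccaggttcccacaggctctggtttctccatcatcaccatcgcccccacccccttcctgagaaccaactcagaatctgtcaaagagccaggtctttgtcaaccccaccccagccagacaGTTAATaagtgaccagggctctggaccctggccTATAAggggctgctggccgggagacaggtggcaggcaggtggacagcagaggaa
Slc26a3, chr6:53751165-53751414, plus strand: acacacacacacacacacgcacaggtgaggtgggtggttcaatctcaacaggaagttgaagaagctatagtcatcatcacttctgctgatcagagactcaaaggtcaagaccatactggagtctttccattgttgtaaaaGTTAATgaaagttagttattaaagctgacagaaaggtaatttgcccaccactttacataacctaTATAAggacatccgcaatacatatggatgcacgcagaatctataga
Slc9a2, chr9:50427362-50427611, plus strand: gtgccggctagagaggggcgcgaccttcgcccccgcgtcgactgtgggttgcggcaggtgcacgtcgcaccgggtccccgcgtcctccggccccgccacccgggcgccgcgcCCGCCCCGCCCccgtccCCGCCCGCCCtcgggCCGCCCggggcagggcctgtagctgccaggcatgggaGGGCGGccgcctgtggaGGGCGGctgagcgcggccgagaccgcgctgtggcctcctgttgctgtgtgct

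Guca2b and Slc26a3 each held 1 TATAA and 1 GTTAAT, while Slc9a2 held neither and had GGGCGG in 7 places, counting both strands. Over all 33469 windows of the same length, TATAA was found in 24.0%, GTTAAT in 6.45% and GGGCGG in 30.5%. The Slc9a2 window was 79.6% G and C with 35 CpG dinucleotides, and the windows of Slc12a2, Cftr and Slc9a3 held 83.2%, 69.2% and 66.8% G and C. The last 3 lie in part or whole inside the outermost bounds of their genes, with 70, 250 and 207 of their 250 bases, and are not printed. Guca2a, Guca2b and Slc26a3 lay at 54.8%, 57.2% and 40.4%, with 1 to 3 CpG, against a median of 51.2% and 5 CpG over all windows. A string found in a window is not a binding site, and these sequences were not tied to the array values. Of the 10 genes, 8 had a window in the table.

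The arrays were near each other in overall signal, with median intensities from 848 to 893, and the correlation of replicates across rows was 0.953 for control and 0.964 for MSCT (Pearson's r of log2 intensity, rows not being independent). Differences are MSCT minus control on the log2 scale, fitted over all 18350 rows by limma, which fits a linear model to each row and pools information on the variance over rows. The study's screen asked for a p under 0.05, without adjustment, together with more than a 2-fold change. Applied here with the limma p, it was passed by 4.63% of rows, 2.12% as higher and 2.51% as lower in the MSCT group. No row had a Benjamini-Hochberg adjusted limma p under 0.05. With 2 arrays on each side, the smallest two-sided p of an exact permutation test is 0.333, and every limma p rests on the pooled variance. Markers of the labelled tissue, chosen after their values were seen, were bright. The epithelial genes Epcam, Cdh1, and Krt20 stood at 13.91 or more and the muscle genes Acta2 and Des at 14.41 or more in log2 intensity on every array.

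Of the 10 genes, 9 were higher in the MSCT group and Slc9a2 was lower, against 48.0% of all rows that were higher. The median of their log2 differences was 0.31 (1.24-fold) against -0.02 over all rows. Since the 10 were chosen with earlier results of these data known, these counts are a description and not a test. Of the 6968 named genes 3885 were higher, with a median of 0.05, and of the 4588 rows in the brightest 25% 2464 were higher, with a median of 0.02. None of the 10 passed the study's screen, and by limma 0 of 10 had an unadjusted p under 0.05, against 12.0% of all rows. With trend and robust eBayes 4 of them, Slc9a2, Slc9a3, Slc12a2 and Car4, had a p under this limit, with adjusted p-values from 0.154 to 0.339, against 14.7% of all rows in that fit. The methods' t-test, a plain test with equal variances, also gave 0 of 10 at this limit, against 9.66% of all rows, and 2.11% of all rows passed the screen by it. Unadjusted p-values of limma ran from 0.0514 for Slc9a2 to 0.507 for Guca2a, and adjusted ones from 0.420 to 0.793. The groups were fully apart, with no overlap of their arrays, in 6 of the 10 genes, against 45.8% of all rows. The 95% interval of the difference held 0 in all 10 genes. It lay wholly within a 2-fold change in 5 of them, Guca2a, Guca2b, Gucy2c, Slc26a3 and Car4, as it did in 51.0% of all rows and 81.8% of the brightest 25% of rows.

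**Figure D1:**
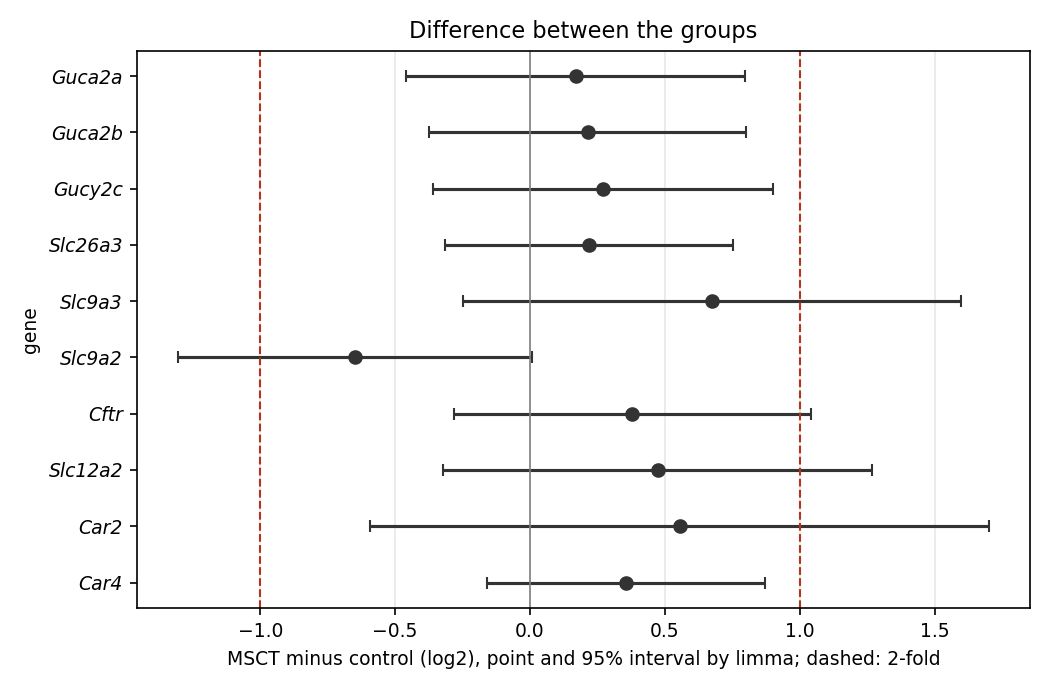
Difference of MSCT minus control in log2 intensity for the 10 genes (points) with the 95% interval by limma (bars), 2 arrays per group, and dashed lines at 2-fold. All intervals cross 0, and those of Guca2a, Guca2b, Gucy2c, Slc26a3 and Car4 stay between the dashed lines.

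The mean differences of the guanylin genes were small, but the 95% intervals reached 0.80 for Guca2a and Guca2b and 0.90 for Gucy2c. Guca2a, which encodes guanylin, had control intensities of 11703 and 14349 and MSCT intensities of 16401 and 12951 (replicates 1 and 2 in this order throughout). The groups overlapped, with MSCT replicate 2 below control replicate 2. On the log2 scale Guca2a averaged 13.66 ± 0.21 in control and 13.83 ± 0.24 in MSCT rats (SD, n = 2 each), a difference of 0.17 (standard error 0.24, 95% interval from -0.46 to 0.80). Without MSCT replicate 1 the difference was -0.00086, so its direction rested on that array, and without control replicate 1 it was 0.02.

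Guca2b, the gene of uroguanylin, had control values of 1820 and 1626 and MSCT values of 1774 and 2245. MSCT replicate 1 lay between the control arrays. The difference was 0.21 (standard error 0.22, 95% interval from -0.37 to 0.80), and 0.04 without MSCT replicate 2. For Gucy2c, the gene of their receptor guanylate cyclase C, the values were 7439 and 6014 in control rats against 9080 and 7189 after MSCT. Here too the groups overlapped, and the difference was 0.27 (standard error 0.24, 95% interval from -0.36 to 0.90). It was 0.10 without MSCT replicate 1 and 0.12 without control replicate 2. Thus both ligands and the receptor were slightly higher in the mean, with overlapping arrays in each case.

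Among other genes of the cyclic GMP signal, Prkg2, Pde5a and Pde2a were chosen after their values were seen and do not stand for the rest. Prkg2, which encodes the membrane-bound cyclic GMP kinase of the enterocyte, had log2 intensities of 6.32 and 8.56 in control rats against 10.30 and 8.95 in MSCT rats. Its difference of 2.19 was large but so was its standard error of 0.89 (limma adjusted p = 0.446), and without control replicate 1 it was 1.07. The row was dim, in the lower 30.8% of all rows by mean brightness. Pde5a, a phosphodiesterase that degrades cyclic GMP, had 12.63 and 12.08 against 11.71 and 11.68, a difference of -0.66 (standard error 0.26, limma adjusted p = 0.430) that was -0.39 without control replicate 1. Pde2a, a phosphodiesterase stimulated by cyclic GMP, had 11.71 on both control arrays, against 12.75 and 12.22 with MSCT, and differed by 0.78 (standard error 0.25, limma adjusted p = 0.370). Neither of these passed the screen.

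A list of 31 other genes of cyclic GMP signaling held 19 measured ones. Their median difference was 0.14, with 14 higher and 5 lower in the MSCT group, against a median of -0.02 over all rows. The groups were fully apart in 7 of the 19, against 45.8% of all rows. Past the screen was 1 of the 19, against 4.63% of all rows. This was Npr1, a natriuretic peptide receptor that also makes cyclic GMP, with 7.11 and 6.89 in control rats against 8.15 and 7.97 in MSCT rats. Its difference was 1.06 (standard error 0.20, limma adjusted p = 0.285), and it no longer passed without control replicate 2 or without MSCT replicate 1, where the difference kept its direction (0.95 to 1.17 over all single arrays left out). The row was dim, in the lower 15.1% by brightness, and a filter on the dimmest 25% of rows removes it.

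Slc26a3 encodes DRA, the exchanger that takes up chloride for bicarbonate. Its intensities were 29840 and 25055 in control rats against 31110 and 32505 in MSCT rats, among the brightest 1% of rows. The MSCT arrays were both above the control arrays, but the group means were closer together than the control arrays were to each other. The difference was 0.22 (standard error 0.20, 95% interval from -0.32 to 0.75, limma adjusted p = 0.694), and 0.09 to 0.34 with single arrays left out.

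The 2 apical sodium/hydrogen exchangers differed in opposite directions, neither past the screen. Slc9a3, the gene of NHE3, the main sodium absorber of the surface cells, had 7203 and 12222 in control rats and 17478 and 12865 in MSCT rats. Control replicate 1 was far below the rest, while control replicate 2 lay just under MSCT replicate 2. Slc9a3 had the largest absolute difference of the 10 on the deposited values, while after quantile normalization that of Slc9a2 was larger (-0.655 against 0.648). On the deposited values the difference of Slc9a3 was 0.68 (standard error 0.35, 95% interval from -0.25 to 1.60, limma adjusted p = 0.515). Without control replicate 1 it was 0.29, and without control replicate 2 it was 1.06 and passed the screen (limma adjusted p = 0.320).

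Slc9a2, which encodes NHE2, an exchanger found more in the crypts, had 3010 and 2889 in control rats and 2232 and 1584 in MSCT rats. The control arrays were close together and both MSCT arrays lay below them. The difference was -0.65 (standard error 0.25, 95% interval from -1.30 to 0.01), with a limma p of 0.0514 unadjusted and 0.420 adjusted. Left-out arrays moved it between -0.90 and -0.40. Slc9a2 was the single gene of the 10 that was lower in the MSCT group, and it kept this direction under every alternative tried.

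The ratio of NHE3 to NHE2 signal can be read within an array, as a change between groups and not as a comparison of amounts. This ratio was chosen after the values were seen. The log2 signal of Slc9a3 minus that of Slc9a2 was 1.26 and 2.08 in control rats and 2.97 and 3.02 in MSCT rats. The groups did not overlap, which had to follow since both genes were fully apart in opposite directions. The mean difference between the groups was 1.33, and without control replicate 1 it was 0.91. The ratio was not tested.

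**Figure D2:**
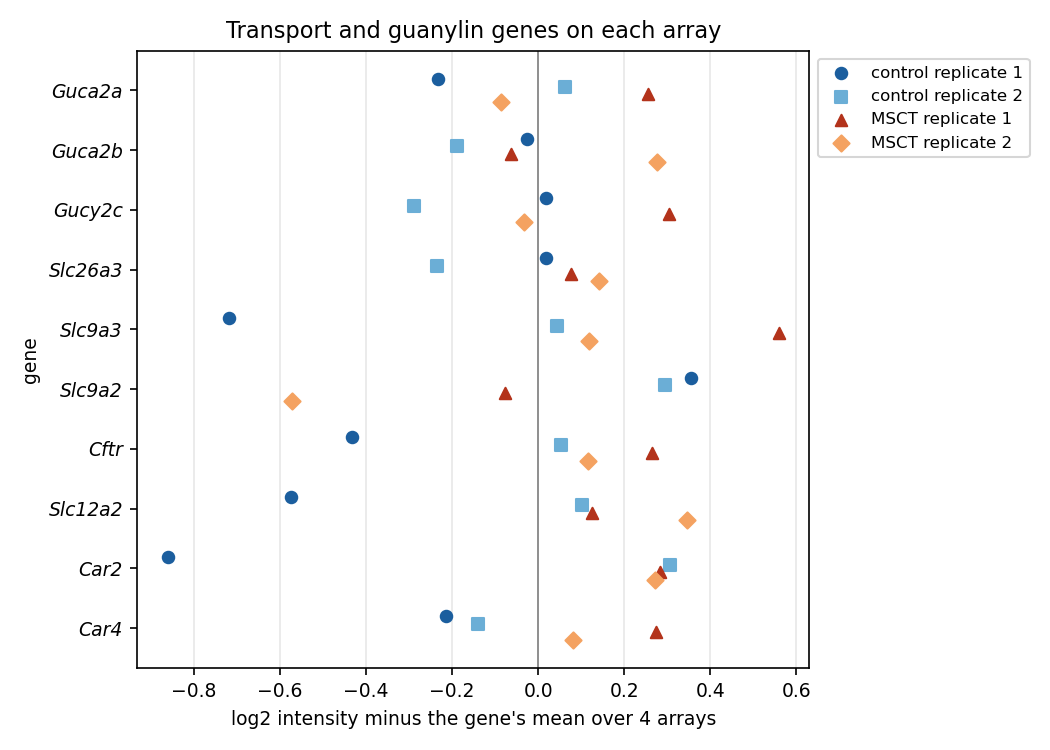
Log2 intensity of each of the 10 genes on each of the 4 arrays, minus the gene's own mean over the arrays. Control replicate 1 lies far to the left for Car2, Slc9a3, and Slc12a2, and Slc9a2 is the gene whose MSCT arrays lie to the left of the control arrays.

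Cftr, the chloride channel of the apical membrane, opened after phosphorylation by cyclic AMP- and cyclic GMP-dependent kinases, had 1017 and 1423 in control rats and 1648 and 1486 in MSCT rats. Slc12a2, whose product NKCC1 loads chloride into the cell across the basolateral membrane, had 4113 and 6566 against 6683 and 7788. Both genes showed the same order, with control replicate 1 lowest and control replicate 2 close under the MSCT arrays. The difference was 0.38 for Cftr (standard error 0.25, 95% interval from -0.28 to 1.04) and 0.47 for Slc12a2 (standard error 0.30, 95% interval from -0.32 to 1.27). Without control replicate 1 these became 0.14 for each, while without control replicate 2 they were 0.62 and 0.81.

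Car2, the gene of the soluble carbonic anhydrase of the cytosol, had 7251 on control replicate 1 and 16274, 16024 and 15889 on the other arrays in order. Thus 3 of the 4 arrays were nearly equal, and the difference of 0.55 (standard error 0.43) came from 1 control array. Without control replicate 1 it was -0.028, and without control replicate 2 it was 1.14 and passed the screen (limma adjusted p = 0.297). Car4, the membrane-anchored carbonic anhydrase of the apical surface, showed no such low array. It had 14004 and 14733 in control rats and 19643 and 17179 in MSCT rats, with narrow spread and no overlap. The difference was 0.35 (standard error 0.19, 95% interval from -0.16 to 0.87, limma adjusted p = 0.530), and it stayed between 0.26 and 0.45 with any array left out.

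Control replicate 1 was the lowest of the 4 arrays in 6 of the 10 genes, against 29.2% of all rows and 34.6% of the brightest 25% of rows, to which 7 of the 10 belong. It was lowest by more than 0.5 on the log2 scale in 3 of the 10, Slc9a3, Slc12a2 and Car2, against 6.96% of all rows and 2.44% of the brightest 25%. This way of counting was chosen after the values were seen. So low on this array were also 6 of 15 measured genes of the small intestine absorptive list, 2 of 6 goblet genes and 4 of 22 other chloride and bicarbonate transporters, but 0 of 14 genes of the epithelium list. Of the genes searched, the 5 whose values over the 4 arrays ran most like those of Slc9a3 were Gria1, Mbl2, Oxtr, Rasgrf2 and Reep6, at root-mean-square distances of 0.03 to 0.06 in centered log2 intensity among 6967 genes. Gria1, Mbl2 and Oxtr were dim, at 6.15 to 7.97 in log2 intensity against 12.81 to 14.09 for Slc9a3. A search of so many genes over 4 arrays finds close matches in any case, and a link to Slc9a3 was not tested.

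Chloride secretion needs the sodium pump and potassium channels, and a list of these had 16 measured genes. Their median difference was 0.14, with 10 higher and 6 lower. The screen was passed by 1 of the 16, against 4.63% of all rows. This was Fxyd3, a small regulator of the sodium pump, with 10.43 and 10.92 in control rats and 11.80 and 11.66 in MSCT rats. Fxyd3 differed by 1.06 (standard error 0.25, limma adjusted p = 0.311). It did not pass without control replicate 1, without MSCT replicate 1 or by the methods' t-test. The next genes were chosen after their values were seen. Kcne3, the subunit that holds the basolateral channel KCNQ1 open, had 11.08 and 12.39 against 12.74 and 12.87. This is the order seen in Slc12a2 and Cftr, and also in Slc9a3, Prkg2 and Nherf2. The Kcne3 difference of 1.07 (standard error 0.48, limma adjusted p = 0.477) shrank to 0.41 without control replicate 1. Kcnq1 itself differed by 0.14 (-0.24 without control replicate 1), Kcnn4, another basolateral potassium channel, by 0.20, and the sodium pump subunit Atp1b1 by -0.11, with limma adjusted p-values from 0.752 to 0.884.

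Scaffolds, kinases and receptors that act on CFTR and NHE3 formed a list of 32 measured genes. The median difference was -0.06, with 15 higher and 17 lower. Of the 32, 1 passed the screen, against 4.63% of all rows. This was Nherf2, a scaffold that ties NHE3 to the cyclic GMP kinase, at 8.92 and 9.63 in control rats and 10.57 and 10.81 in MSCT rats. The difference was 1.42 (standard error 0.31, limma adjusted p = 0.295), and it passed with any single array left out but not by the methods' t-test. Also chosen after their values were seen, its relative Nherf1 differed by -0.04 (95% interval from -0.55 to 0.48), and Ezr, the gene of ezrin, which links these scaffolds to actin, by 0.09 (-0.41 to 0.60).

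At an unadjusted limma p under 0.05 this list held 4 genes that were higher and 6 that were lower, against 4.80% and 7.17% of all rows. The examples that follow were chosen after their values were seen, and none passed the screen. Lower in the MSCT group were Sgk1, a kinase that stimulates NHE3 and sodium channels (-0.72, standard error 0.20), Dpp4, a brush border peptidase (-0.94, standard error 0.23), Wnk1, a kinase that acts on chloride cotransporters (-0.79, standard error 0.23), and Vipr1, a receptor of the secretagogue VIP (-0.58, standard error 0.21). Higher were P2ry2, a nucleotide receptor that triggers chloride secretion through calcium (0.81, standard error 0.23), and Wnk4, a relative of Wnk1 (0.56, standard error 0.19). In all 6 the groups were fully apart, which adds little because they were picked from the genes under this limit. The groups were fully apart in 17 of the 32 genes of the list and in 45.8% of all rows.

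Of 53 other chloride and bicarbonate transporters, channels and carbonic anhydrases, 22 were measured. Their median difference was 0.04, with 12 higher and 10 lower. Of the 22, 1 passed the screen, against 4.63% of all rows. This was Slc9a5, a sodium/hydrogen exchanger best known from brain, which was lower. It had 9.30 and 8.03 in control rats and 7.09 and 6.85 in MSCT rats (difference -1.70, standard error 0.47, limma adjusted p = 0.338). Its row was dim, in the lower 20.1% by brightness, and it did not pass without MSCT replicate 2 or by the methods' t-test. Of others, chosen after their values were seen, Slc4a2, the basolateral anion exchanger, differed by 0.19, Clcn2, a chloride channel, by 0.21 (95% interval from -0.84 to 1.26), Clca4 by 0.09 and Car12, a basolateral carbonic anhydrase, by -0.10. Without control replicate 1, the lowest array in the first 3, these were 0.01, -0.31, -0.13 and -0.17. Slc4a4, the sodium bicarbonate cotransporter, differed by 0.75 (standard error 0.36, limma adjusted p = 0.499), and by 0.43 without control replicate 1.

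**Figure D3:**
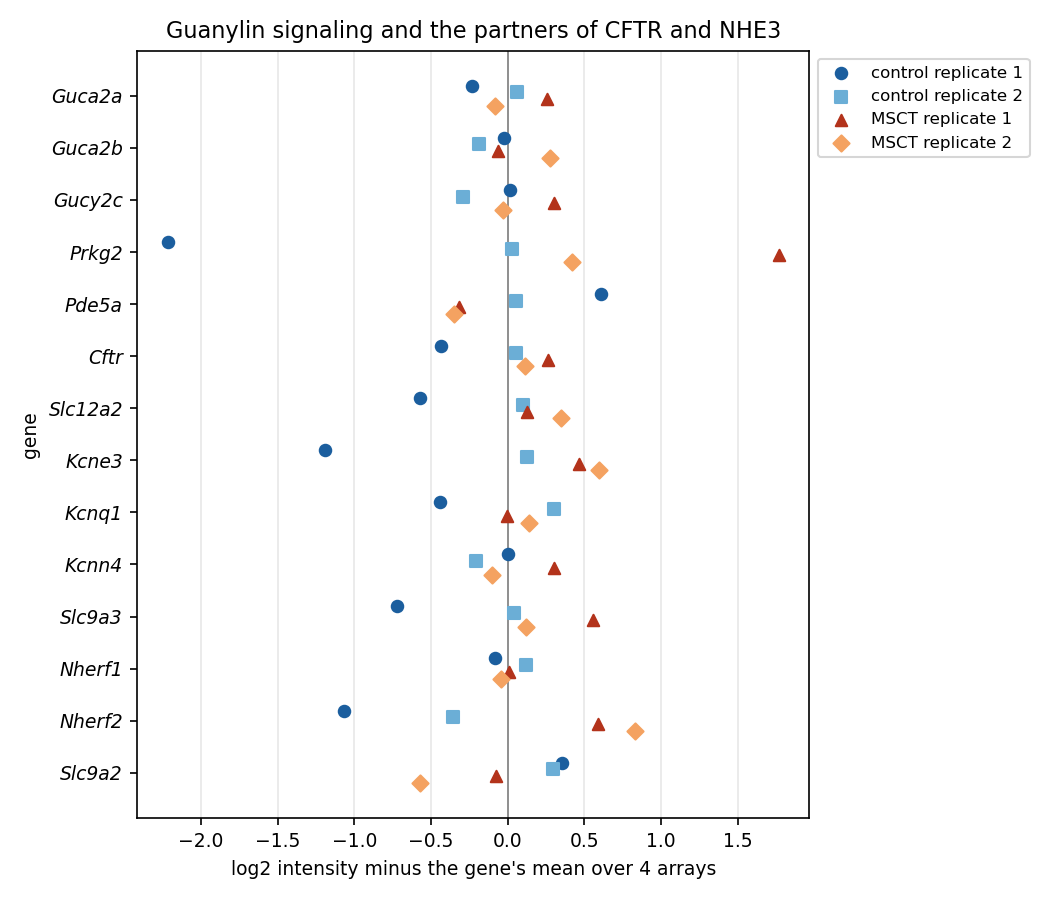
Log2 intensity on each array minus the gene's mean over the 4 arrays, for the guanylin ligands and receptor, genes of cyclic GMP signaling, and partners of CFTR and NHE3. Prkg2 has the widest spread, and the 4 arrays of Nherf1 lie near 0. Control replicate 1 is lowest and control replicate 2 next lowest in Kcne3, Slc12a2, Cftr, Slc9a3, Prkg2 and Nherf2.

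In whole tissue, fewer cells of a type and less RNA per cell cannot be told apart, so marker lists were read beside the 10 genes. The epithelium list (14 of 19 genes measured) differed little, with a median difference of 0.09 and summed intensities of 248726 and 258450 in control rats and 267690 and 257837 in MSCT rats. Its largest difference was that of Elf3, an epithelial transcription factor, at -0.72, which did not pass the screen. The smooth muscle list (8 of 14 measured) had a median of 0.01 and sums of 221074 and 190899 against 205351 and 202099, and in all 8 genes the 95% interval lay within 2-fold.

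Other lists held genes past the screen, which 4.63% of all rows passed. Of 10 measured leukocyte genes 9 were higher in the MSCT group, with a median of 0.99 and sums of 14128 and 16051 against 18599 and 21915. In this list 5 genes passed the screen, of which Tyrobp had the largest difference (1.58). The list was not uniform, since Cd8a, Cd3g and Cd4 differed by 0.01, 0.13 and 0.37, and Cd14 by -0.04. Of 6 measured goblet genes 5 were higher and past the screen, with sums of 4737 and 5890 against 27188 and 26667 and with Gcnt3 first (3.57). The list of absorptive genes of the small intestine (15 of 19 measured) had 12 genes higher and 3 lower, with a median of 0.91. Its sums were 15689 and 19363 against 24701 and 25125, with 5 genes past the screen and Fabp1 first (4.01). Lower were Slc5a1 (-0.45), Slc15a1 (-0.57) and Gata4 (-0.53), none past the screen. The neuron and glia list (12 of 13 measured) had a median of -0.35, and Elavl4 passed the screen as lower (-1.06, and -1.46 to -0.67 with single arrays left out). By the methods' t-test Elavl4 did not pass, nor did Lcp1 of the leukocyte list or Fabp2, Alpi and Apob of the absorptive list. Gcg, the glucagon gene of the enteroendocrine list (10 of 14 measured, median 0.26), differed by 2.41 and passed. The list of fibroblast and endothelium (7 of 12 measured) had a median of 0.29 and no gene past the screen, with Pdgfrb first (0.86). No measured marker was at 0, and the part of these shifts in the differences of the 10 genes was not tested.

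Read per array, the median of the 10 genes about their own means was -0.22 and 0.05 in control rats and 0.26 and 0.12 in MSCT rats. The absorptive list of the small intestine had the same order of control replicates, at -0.55 and -0.15, but the epithelium list lay between -0.12 and 0.09 on all 4 arrays. The reference genes Actb, Gapdh and B2m differed by 0.12, -0.19 and -0.17, and Hprt1 by 0.44, none with a limma p under 0.05. By the methods' t-test Hprt1 had an unadjusted p of 0.0438 (adjusted p = 0.515).

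**Figure D4:**
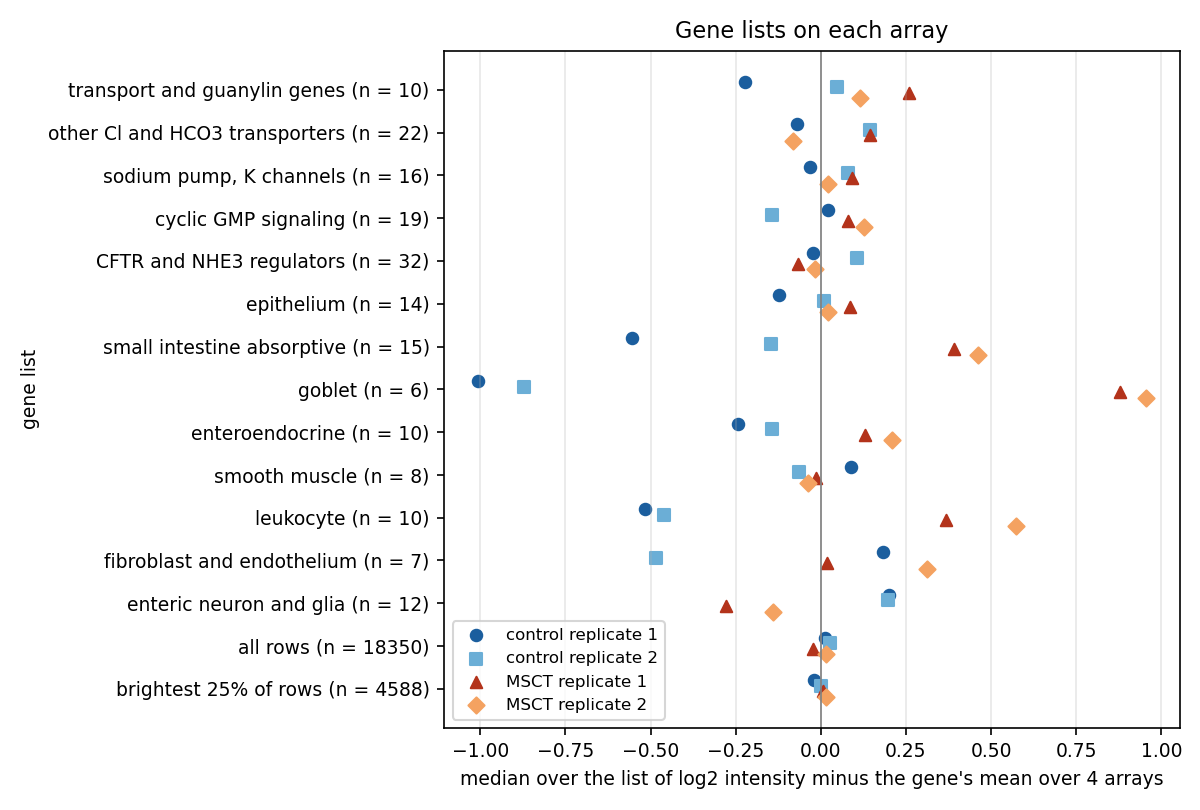
Median over each gene list of log2 intensity minus the gene's mean over the 4 arrays, 1 point per array, with the number of measured genes in each list. Goblet, leukocyte and small intestine lists separate the groups widely, while the epithelium and smooth muscle lists stay within 0.13 of 0 and the 10 transport and guanylin genes lie from -0.22 to 0.26.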

How the data were processed

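Colon RNA of 2 control and 2 MSCT rats was hybridized to one-color NimbleGen arrays. The authors used a GenePix scanner and NimbleScan 2.6 and deposited 1 linear intensity per RefSeq transcript and array. The submitters' processing notes name RMA without its role. Background correction and the rule for blank rows are not given in the sources used here. Of 26420 rows, 18350 were measured on every array and 8070 were blank throughout. 0 value columns were left without a sample.

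Intensities were turned into log2 values with no pseudocount, scaling or filter. MSCT and control were compared with limma 3.58.1 in R 4.3.3 (lmFit, eBayes), with Benjamini-Hochberg adjustment over all rows, and checked on simulated data. The study's screen, applied here with the limma p unless another test is named, asked for p under 0.05, unadjusted, and more than 2-fold change. The one-way analysis of variance of its methods is, for 2 groups, the methods' t-test. Rows were named through the RefSeq table of GRCr8 (7068 of the measured rows), used for names, neighboring genes and promoter windows only. The files name no build, so positions are those of GRCr8 for the printed windows, and none is given for the array rows.

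The 10 genes and all lists were chosen with earlier results of these data known. From other lists the text names genes that passed the screen with the groups fully apart (at most 5 higher and 5 lower), else the one with the largest difference, and the 5 genes nearest to the member with the largest difference. Long lists are summarized by their first gene, and genes outside the rule are said to be chosen after their values were seen. Alternatives were equal array medians, quantile normalization, the methods' t-test, array weights, trend and robust eBayes, a replicate block, folds of linear means, the dimmest row of a gene, a filter on the dimmest 25% or 50% of rows, and each array left out. The number of arrays limits the precision. The values of 1 gene of the lists are not reported here, though the lists' counts include it. Python 3.11.15, pandas 2.3.3 and matplotlib 3.10.9 were used for names and figures.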

Additional observations from a re-analysis of the deposited data

How the results depend on the processing

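Of 13 alternatives, 6 (other tests, weights, block and filters) leave the differences of the 10 genes as they are, and over the other 7, 66 of 70 differences kept their direction and their side of the screen. Over all 13 no adjusted p fell below 0.05 (smallest 0.154). The exceptions were Car2 (-0.028 without control replicate 1, and 1.14 and past the screen without control replicate 2), Guca2a (-0.00086 without MSCT replicate 1, up to 0.34 without MSCT replicate 2) and Slc9a3 (1.06 and past the screen without control replicate 2). With each array left out, 0 to 2 of the 10 genes passed the screen, 0 to 3 had an unadjusted limma p under 0.05, and 934 to 1565 of all rows passed, against 850. A p under 0.05 was found for 1 of the 10 genes after quantile normalization, with the replicate block, and without the dimmest 25% or 50% of rows, and for 4 with trend and robust eBayes. The screen was passed by 388 rows by the methods' t-test and by 251 without the dimmest 50% of rows. Of the 4 genes past it in the 4 lists of related transport and signaling genes, the methods' t-test left 1, and the replicate block and trend and robust eBayes each gave 8, with 4 to 12 when single arrays were left out. Replicate numbers in the labels were not stated to pair rats, the deviations of same-numbered arrays correlated at 0.23 across rows, and the block gave 971 rows. No gene of the 10 had another measured row, so the lowest row gave no other value. Where causes are not plain from fewer rows or arrays, the cause was not tested. Signal over background was not used here, so how far dim rows such as Prkg2 lie above it is unknown.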
